A study of Mus musculus with 8 samples.

Results

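The nuclear-encoded subunits of the mitochondrial respiratory chain and of ATP synthase were examined in the tibialis anterior (TA) muscle and the cerebellum of mice carrying an SCA17 knock-in (KI) and of wild-type (WT) mice. The set held 36 genes of the 19938 that had a probe set with 1 gene symbol, and each gene was read from its brightest probe set. The 36 genes were chosen by name, with earlier results of these data known: 13 encode subunits of complex I, 4 of complex II, 4 of complex III, 10 of complex IV and 4 of ATP synthase (complex V), and 1, Cycs, encodes somatic cytochrome c. All 36 passed the filter on low values in both tissues, which asked that a gene reach its array's 40th percentile on at least 2 of the 4 arrays of the tissue. Levels are log2 values, so 1 unit is a 2-fold difference, and a gene is called where its adjusted p is under 0.05.

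SCA17 is spinocerebellar ataxia type 17, an inherited disease caused by a lengthened glutamine tract in the TATA-box binding protein, Tbp, a general transcription factor. Total RNA of KI and WT mice aged 3 months was hybridised to 8 Affymetrix mouse gene arrays, 2 for each of 4 groups: KI muscle, WT muscle, KI cerebellum and WT cerebellum. According to the study text 3 animals of either genotype were used; the arrays analysed here number 2 for each tissue of a genotype. Strain, sex, the length of the glutamine tract, the cells that express the knock-in allele and any pooling of animals are not stated in the sources used here. Array titles carry the numbers 94 and 97 for KI and 95 and 96 for WT in both tissues, and nothing in the labels says whether a number is an animal, so p-values measure only the spread between these arrays, which may be technical.

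The respiratory chain passes electrons from NADH (complex I) and succinate (complex II) through complex III and cytochrome c to oxygen at complex IV. Complexes I, III and IV pump protons across the inner mitochondrial membrane, and ATP synthase uses the return flow to make ATP. Most subunits are encoded in the nucleus, and 3 subunits of complex IV (6a, 7a and 8) exist in mice as a broadly expressed form and a form of heart and skeletal muscle. Skeletal muscle fibres differ in their mitochondrial content, which is higher in slow and oxidative fibres than in fast glycolytic ones.

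The 8 arrays had medians of 5.40 to 5.51 (log2), and arrays of one group correlated at r of 0.977 to 0.989 across probe sets. The arrays did not sort by genotype on this measure: WT muscle array 96 and KI muscle array 94 correlated at 0.9818 with each other and at 0.9773 and 0.9815 with their group mates, and both KI cerebellum arrays correlated higher with a WT array (0.9889 and 0.9884) than with each other (0.9861). Marker genes went with the tissue labels: the 7 muscle fibre markers were 5.26 to 7.63 log2 units higher in muscle, and the 5 granule cell and 4 Purkinje cell markers were 2.76 to 7.11 log2 units lower there. Tbp itself lay between 6.70 and 6.94 in muscle and between 7.52 and 7.85 in cerebellum, with an adjusted p for KI against WT of 0.634 and 0.998 (limma, Benjamini-Hochberg). Its probe set does not tell the alleles apart. These are bulk samples, in which fewer cells of a type and less RNA per cell cannot be told apart.

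Muscle held more mRNA of most of these genes than cerebellum did, and the heart and muscle isoforms of complex IV differed most. Averaged over both genotypes, 27 of the 36 genes passed an adjusted p under 0.05 with at least a 2-fold difference, 25 higher in muscle and 2 lower (limma). Over all 14708 genes tested, 26.0% passed, 11.0% higher and 15.0% lower. At an adjusted p under 0.05 alone, all 36 passed, against 72.3% of all genes tested. The median difference was 1.36 log2 units for the 36 genes and 0.03 for all genes tested.

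The 3 forms of heart and skeletal muscle were the highest in muscle relative to cerebellum. Cox8b was 86.1-fold higher in muscle (6.43 ± 0.11 SE on the log2 scale, 4 arrays against 4), Cox7a1 was 34.0-fold higher (5.09 ± 0.10) and Cox6a2 was 33.0-fold higher (5.04 ± 0.11). Cox8b reached the 40th percentile in cerebellum on 2 of 4 arrays, so its fold depends on the background of the arrays. Cox7a1 and Cox6a2 exceeded it there on 4 of 4. In WT cerebellum Cox6a2 was still below the array medians, so its fold also rests on low signal. The broad forms went the other way or differed little. Cox6a1 was 4.27-fold and Cox8a 2.87-fold higher in cerebellum, whereas Cox7a2 was 1.35-fold higher in muscle.

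**Figure D1:**
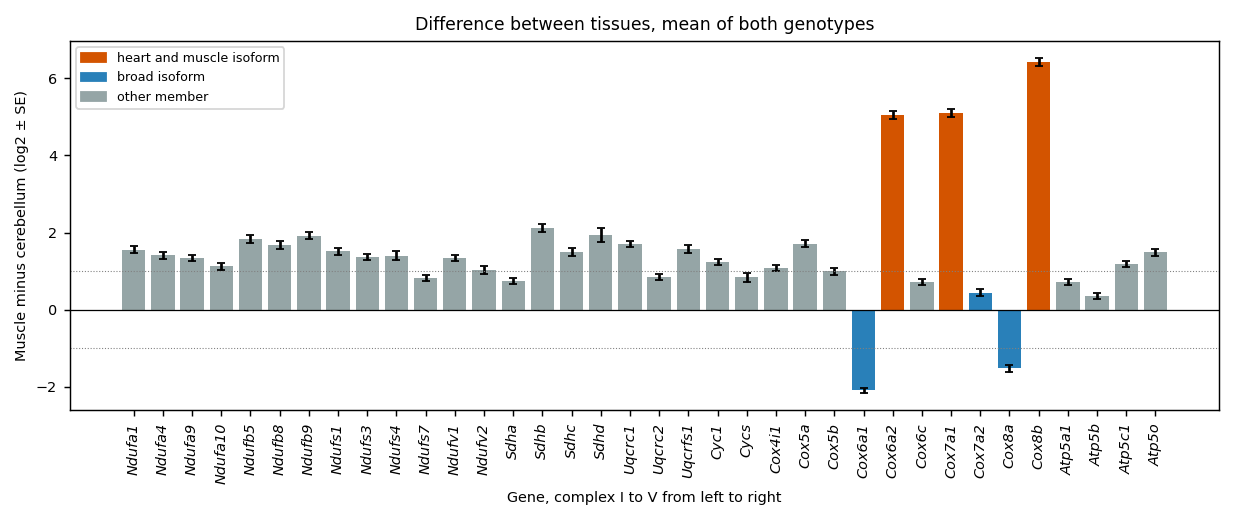
Difference between muscle and cerebellum (log2, bars, mean of both genotypes; error bars, SE) for each of the 36 genes, ordered from complex I to complex V. Dotted lines mark a 2-fold difference. The 3 heart and muscle isoforms of complex IV stand at 5.04 to 6.43, and the broad isoforms Cox6a1 and Cox8a are the 2 genes below 0.

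The other 30 genes were between 0.35 (Atp5b, the catalytic beta subunit of ATP synthase) and 2.12 log2 units higher in muscle (Sdhb, the iron-sulphur subunit of complex II). Genes of complex I had a median difference of 1.40 and those of complex II of 1.71. Complex III had a median of 1.40 and complex V of 0.95. Of all 36, the 9 genes under 2-fold were Ndufs7, Sdha, Uqcrc2, Cycs, Cox5b, Cox6c, Cox7a2, Atp5a1 and Atp5b.

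On single arrays the isoforms of complex IV lay in separate ranges by tissue. Cox8b read 11.30 and 11.56 in the KI muscle arrays 94 and 97 and 11.39 and 11.27 in the WT muscle arrays 95 and 96, against 5.14, 4.93, 4.69 and 5.04 in the cerebellum arrays in the same order. Cox7a1 read 10.91, 11.23, 10.92 and 11.01 in muscle and 6.12, 5.80, 5.85 and 5.92 in cerebellum. Cox6a2 read 10.75, 10.71, 10.87 and 10.51 in muscle and 5.80, 6.15, 5.32 and 5.40 in cerebellum. For all 3 the tissues did not overlap, and the genotypes overlapped in muscle. The broad form Cox6a1 read 7.04, 7.07, 7.14 and 7.004 in muscle and 9.22, 9.14, 9.11 and 9.16 in cerebellum. Cox7a2 read 8.94, 9.10, 9.02 and 8.90 in muscle and 8.62, 8.40, 8.50 and 8.70 in cerebellum. Both broad forms separated the tissues without overlap, with genotypes overlapping in each tissue.

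**Figure D2:**
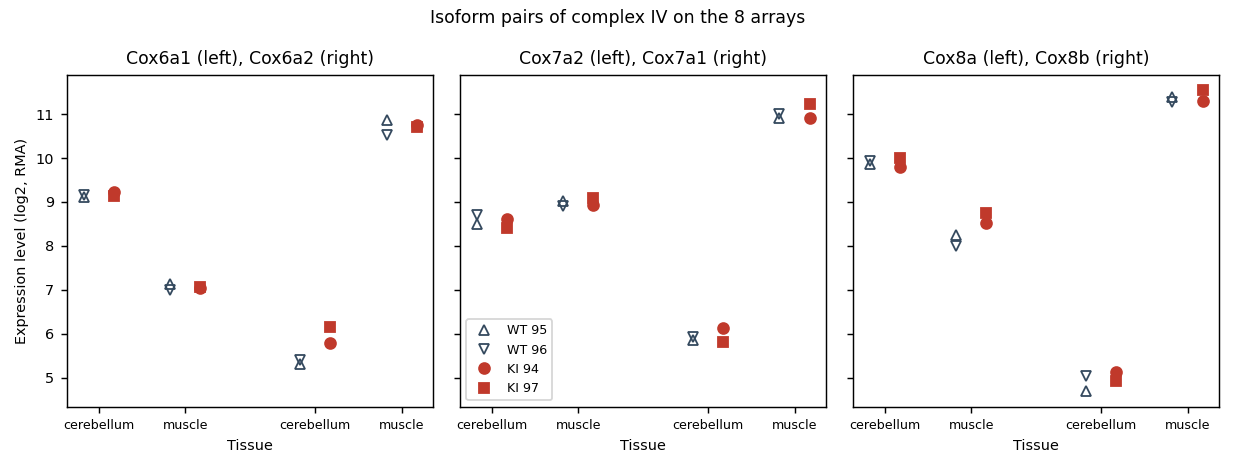
Log2 expression levels of the 3 isoform pairs of complex IV on the 8 arrays, by tissue (red filled, KI; dark open, WT; marker shapes are the array numbers). Levels of different probe sets are not comparable with each other. In muscle, Cox8a is the member whose 2 KI arrays (8.52 and 8.75) both lie above the 2 WT arrays (8.25 and 7.99).

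The promoters of 3 of these isoform genes are shown because the broad and the muscle forms differ in tissue level. The window ran from 250 bases before to 30 bases after the RefSeq start (GRCm38.p6), and 27 of the 36 genes had an entry, giving 28 windows; Cox6a2 had none. The sequences read 5′ to 3′ on the gene's strand, and capitals mark matches on either strand to 4 motifs chosen after the sequences were seen: TATAAA (the box that Tbp binds), CAGCTG (an E-box, the site type of the MyoD family), TGCGCA (the core of the NRF1 motif) and CCGGAAG (an ETS motif, read by GABP).
Cox8b (chr7:140900417-140900696, minus strand): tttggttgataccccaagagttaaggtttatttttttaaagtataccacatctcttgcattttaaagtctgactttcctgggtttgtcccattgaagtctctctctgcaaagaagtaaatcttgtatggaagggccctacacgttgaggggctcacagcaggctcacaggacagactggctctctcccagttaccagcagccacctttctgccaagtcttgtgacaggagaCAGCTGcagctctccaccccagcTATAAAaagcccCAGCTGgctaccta
Cox8a (chr19:7217587-7217866, minus strand): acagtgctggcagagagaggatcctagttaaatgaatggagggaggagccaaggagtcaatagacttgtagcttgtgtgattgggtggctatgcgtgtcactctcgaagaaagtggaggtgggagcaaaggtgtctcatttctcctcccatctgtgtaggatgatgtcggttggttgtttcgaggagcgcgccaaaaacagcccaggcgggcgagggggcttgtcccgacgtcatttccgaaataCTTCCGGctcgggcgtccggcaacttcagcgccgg
Cox6a1 (chr5:115348929-115349208, minus strand): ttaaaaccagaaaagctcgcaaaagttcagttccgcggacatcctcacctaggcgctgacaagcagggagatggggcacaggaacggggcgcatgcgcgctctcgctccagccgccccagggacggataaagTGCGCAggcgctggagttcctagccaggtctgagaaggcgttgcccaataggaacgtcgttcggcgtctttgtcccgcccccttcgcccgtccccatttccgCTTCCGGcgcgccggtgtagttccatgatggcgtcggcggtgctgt
In the muscle form Cox8b, TATAAA stood at bases 5 to 10, counting the start as 1 and the base before it as -1, and CAGCTG at -19 to -14 and at 17 to 22. This TATAAA thus lies after the annotated start and not before it, and whether Tbp binds there was not tested. In the broad form Cox8a, CCGGAAG stood on the opposite strand at -5 to 2. In Cox6a1, TGCGCA stood at -118 to -113 and CCGGAAG on the opposite strand at -16 to -10. Of the third isoform pair, neither Cox7a1, a muscle form, nor Cox7a2, a broad form, held any of the 4 in its window. Across the set, TGCGCA was in 6 of 28 windows (21.4%; Cox5b, Cox6a1, Ndufa9, Ndufb8, Sdha and Sdhd) and in 7.39% of all 32851 windows. A longer NRF1 consensus of 10 bases was searched first and replaced by this core, which could be spelled out; it was in 6 of 28 windows (21.4%; Atp5c1, Atp5o, Cox6a1, Sdha, Sdhd and Uqcrc1) and in 4.41% of all. CCGGAAG was in 5 of 28 (17.9%; Cox6a1, Cox8a, Ndufs3, Sdhb and Sdhd) and in 8.45% of all. TATAAA was in 2 of 28 (7.14%; Cox8b and Ndufs7) against 13.1%, and CAGCTG in 3 of 28 (10.7%; Atp5b, Cox8b and Ndufv2) against 14.9%. The set's windows include the printed ones, after which the motifs were chosen, so these shares do not test an excess of a motif. A match is a run of letters and not a shown binding site.

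Between genotypes in muscle, none of the 36 genes passed an adjusted p under 0.05 (limma, Benjamini-Hochberg over 13933 genes), against 3.55% of all genes tested (2.66% higher and 0.890% lower). The adjusted p ranged from 0.0762 to 0.988. At an unadjusted p under 0.05, 5 of the 36 passed, 4 lower and 1 higher in KI, against 20.3% of all genes tested (6.69% lower and 13.6% higher). The difference KI minus WT was below 0 for 29 of the 36 genes, against 45.0% of all genes tested, with a median of -0.11 log2 units against 0.03. Both KI arrays lay below both WT arrays for 14 genes (19.9% of all genes tested) and above both for 1 gene (30.3%). None of these shares is a test of the set.

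**Figure D3:**
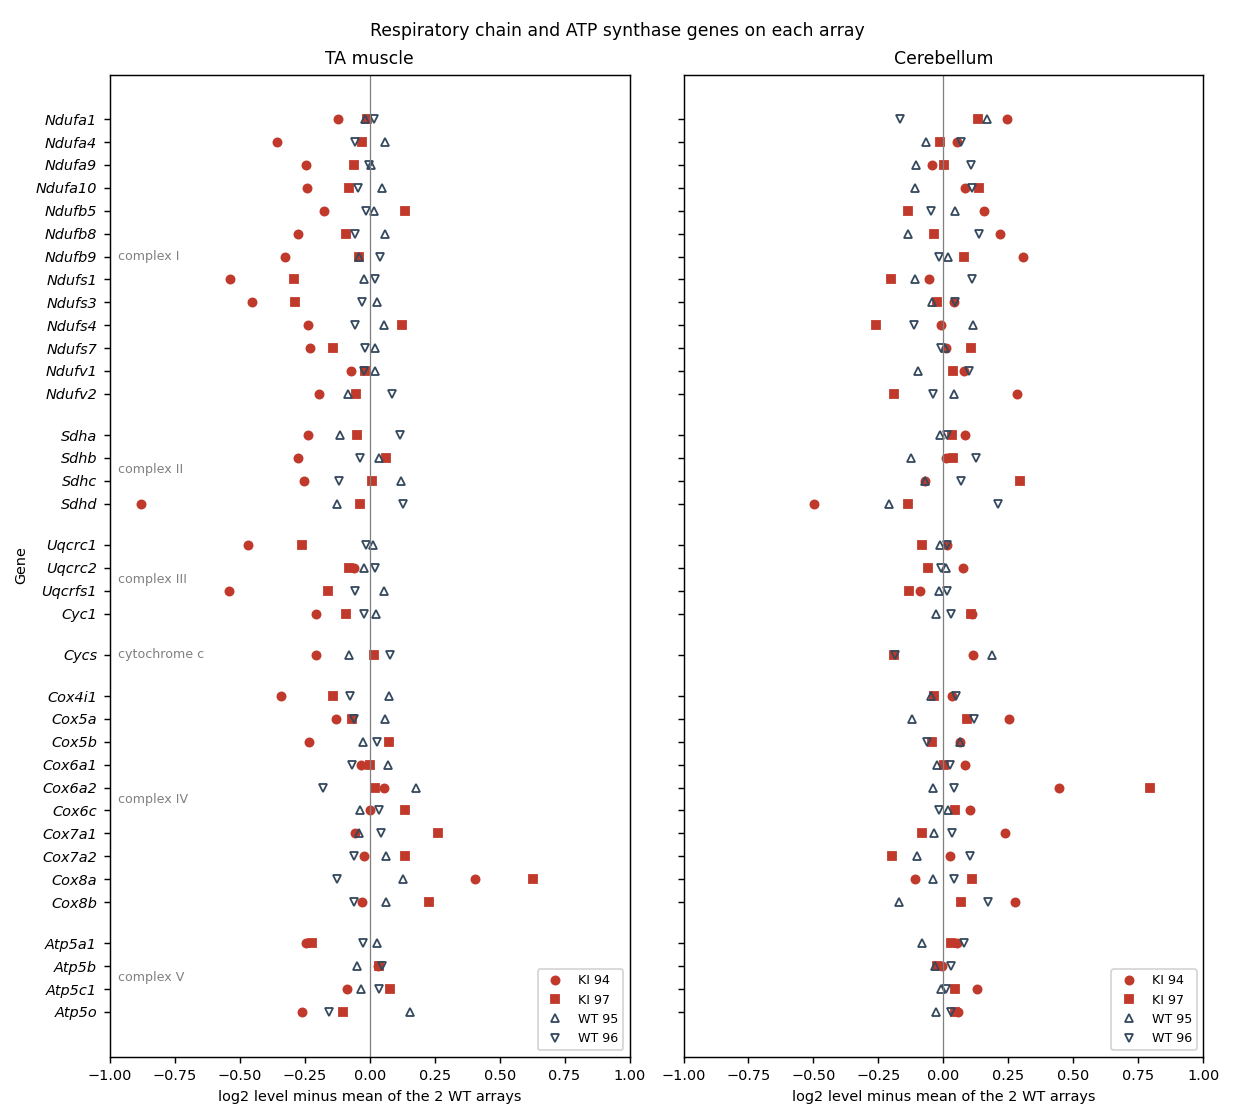
Log2 level of each of the 36 genes on each array, minus the mean of the 2 WT arrays of that tissue (red filled, KI; dark open, WT; marker shapes are the array numbers), grouped by complex. In muscle, KI array 94 lies below both WT arrays for 29 genes and KI array 97 for 14.

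The 2 KI muscle arrays were not alike. KI array 94 lay below both WT arrays for 29 of the 36 genes, against 31.9% of all genes tested, and above both for 1, against 42.8%. KI array 97 lay below both for 14, against 32.7%, and above both for 10, against 42.2%. The median of the 36 genes relative to the WT mean was -0.23 on KI array 94 and -0.035 on KI array 97. The WT arrays lay 0.022 to either side. These mirror each other because the mean of the same 2 arrays is the reference, so they are no independent measure of spread. Without KI array 94 the median difference was -0.035, with 21 of 36 genes below 0, and without KI array 97 it was -0.23.

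**Figure D4:**
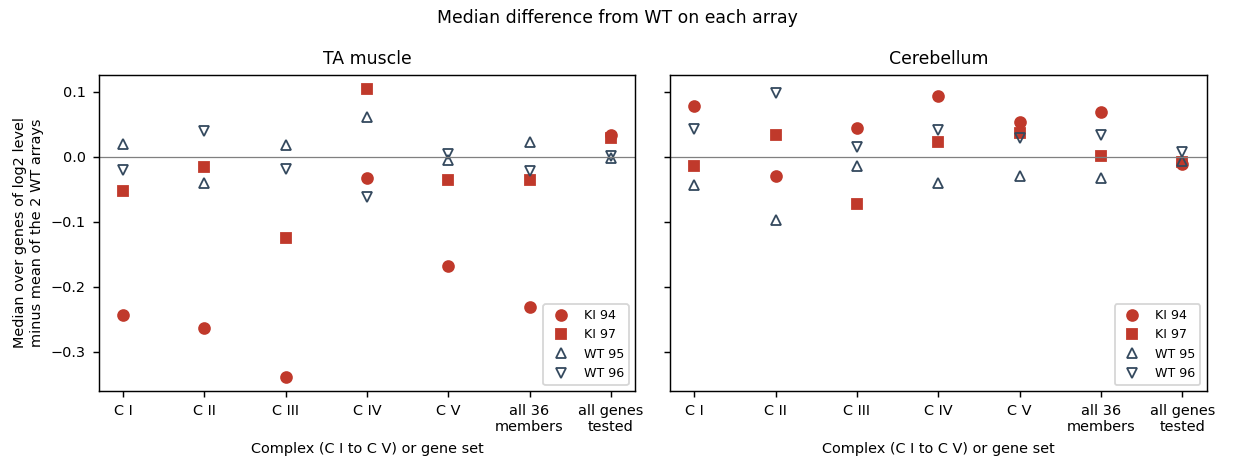
Median over the genes of each complex, over the 36 genes and over all genes tested, of the log2 level minus the mean of the 2 WT arrays, for each array. In muscle, KI array 94 has medians of -0.24, -0.26 and -0.34 for complexes I, II and III, and KI array 97 has -0.05, -0.02 and -0.13.

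Complex I takes electrons from NADH. Values below are given for KI arrays 94 and 97 and then for WT arrays 95 and 96. All 13 of its genes had a difference below 0 in muscle (median -0.16), against 45.0% of all genes tested. In 7 both KI arrays lay below both WT arrays, against 19.9% of all genes tested. Ndufs3, a core subunit of the matrix arm, read 9.67 and 9.84 in KI and 10.16 and 10.10 in WT. The KI arrays were both lower, with a difference of -0.37 ± 0.11 (SE) and an adjusted p of 0.102. A further Ndufs3 probe set gave -0.38. Ndufs1, the largest core subunit and a carrier of iron-sulphur clusters, read 9.77 and 10.01 in KI and 10.28 and 10.32 in WT (-0.41 ± 0.13, adjusted p 0.117). The other genes with no overlap, Ndufa9, Ndufa10, Ndufb8, Ndufb9 and Ndufs7, had differences of -0.19 to -0.15. In the 6 genes with overlapping arrays the differences were -0.19 to -0.02: Ndufa1, Ndufa4, Ndufb5, Ndufs4, Ndufv1 and Ndufv2. Ndufv1 carries the NADH-binding site, and Ndufa4 is now placed with complex IV by many authors.

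Complex II feeds electrons from succinate. Its 4 genes were all below 0 in muscle (median -0.13), against 45.0% of all genes tested, and none separated the genotypes. Sdhd, a membrane anchor, read 9.23 and 10.07 in KI and 9.98 and 10.24 in WT. KI array 94 alone was low, and the difference was -0.46 ± 0.26 (SE) with an adjusted p of 0.357. In cerebellum Sdhd was again lowest on KI array 94, at 7.61, against 7.97 on KI array 97 and 7.90 and 8.32 in WT. The catalytic flavoprotein Sdha, the iron-sulphur subunit Sdhb and the anchor Sdhc had differences of -0.14, -0.11 and -0.12.

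Complex III passes electrons to cytochrome c. Its 4 genes were all below 0 (median -0.25), against 45.0% of all genes tested. Each had both KI arrays below both WT arrays, against 19.9% of all genes tested. Uqcrc1, a core subunit, read 9.92 and 10.13 in KI and 10.40 and 10.37 in WT (-0.37 ± 0.11 SE, adjusted p 0.112). Uqcrfs1, the Rieske iron-sulphur protein, read 7.92 and 8.30 in KI and 8.52 and 8.41 in WT (-0.35 ± 0.14, adjusted p 0.192). Uqcrc2, the other core subunit, and Cyc1, cytochrome c1, had differences of -0.07 and -0.15. Cycs, the mobile carrier to complex IV, read 11.57 and 11.80 in KI and 11.70 and 11.86 in WT, so the genotypes overlapped (-0.10 ± 0.16, adjusted p 0.789). Further Cycs probe sets gave -0.12 and -0.15. Cytochrome c has processed copies in the mouse genome, and the annotation does not say which copy a probe set reads.

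Complex IV passes electrons to oxygen. Its genes divided, with 4 of 10 below 0 and a median of 0.05. Cox8a, the broad form of subunit 8, was the 1 gene of the 36 with both KI muscle arrays above both WT arrays. It read 8.52 and 8.75 in KI and 8.25 and 7.99 in WT, a difference of 0.52 ± 0.14 (SE) with an unadjusted p of 0.0041 and an adjusted p of 0.0762 (limma). Cox8b, its muscle form, overlapped between genotypes (0.10 ± 0.15, adjusted p 0.767). The log2 balance of Cox8b over Cox8a read 2.77 and 2.81 in KI and 3.14 and 3.27 in WT, a difference of -0.42 with no overlap. No share over all genes was computed for such balances. The balances of the other pairs overlapped between genotypes, with differences of 0.05 for both Cox6a2 over Cox6a1 and Cox7a1 over Cox7a2. Cox4i1, a structural subunit, read 9.43 and 9.63 in KI and 9.85 and 9.70 in WT (-0.24, adjusted p 0.285). Cox5a had no overlap either at -0.10, and Cox5b and Cox6c were at -0.08 and 0.07.

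ATP synthase had 3 of 4 genes below 0 (median -0.09). Atp5a1, the alpha subunit of the catalytic head, read 11.29 and 11.32 in KI and 11.56 and 11.51 in WT (-0.23 ± 0.11 SE, adjusted p 0.255), and its genotypes did not overlap. Atp5b read 12.00 and 12.00 in KI and 11.92 and 12.02 in WT. Atp5o, the stalk subunit that confers oligomycin sensitivity, and Atp5c1, the gamma subunit, had differences of -0.18 and -0.01.

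Without the 6 isoform genes, 28 of 30 genes were below 0 in muscle, against 45.0% of all genes tested, with a median of -0.15. The genes left out held most of those above 0: Cox6a2, Cox7a1, Cox7a2, Cox8a and Cox8b. Relative to the WT mean, the median of the 30 was -0.24 on KI array 94 and -0.05 on KI array 97. Markers of muscle fibres and of other cells differed between the same arrays. Of 7 markers of skeletal muscle fibres, 6 had both KI arrays below both WT arrays, against 19.9% of all genes tested (median -0.47, none called). The fast-fibre genes among them, Myh4, Myh1, Mylpf and Tnnt3, had differences of -0.62 to -0.47. Acta1 was at -0.43, Ckm at -0.16 and Ttn, which overlapped between genotypes, at 0.0079. The summed level of the 7 was 14.27 and 14.37 in KI (arrays 94 and 97) and 14.64 and 14.75 in WT on the log2 scale. All 8 markers of slow or oxidative fibres were below 0, against 45.0% of all genes tested. Tnnt1, Tnnc1 and Tnni1 were near 0, at -0.01, -0.03 and -0.12, and Myh7 and Myh2 were at -0.41 and -0.46. All of these overlapped between genotypes. In 3 both KI arrays lay below both WT arrays, against 19.9%. Of the 8, 1 was called, and it was lower, against 0.890% of all genes tested called lower. That was Myl3, the slow myosin light chain, at -2.35 (limma, adjusted p 0.00638). Myl3 read 6.11 and 5.90 in KI and 8.95 and 7.77 in WT, so the WT arrays lay far apart. The summed level of the 8 was 11.02 on KI array 94, 11.99 on KI array 97 and 12.33 and 12.28 in WT. Mb and Myh2 read highest of the 8 on each muscle array and weigh most in this sum. Mb, myoglobin, read 10.08 and 10.93 in KI and 11.47 and 11.51 in WT (-0.98, adjusted p 0.0579). Of 5 fibroblast markers 3 were above 0 and none was called, with a summed level of 12.01 on KI array 94, 11.34 on KI array 97 and 11.51 and 11.62 in WT. Of 5 macrophage markers tested 4 were above 0 and none was called, with 9.23 and 9.07 in KI and 8.94 and 8.82 in WT. Of 4 adipocyte markers tested 3 were below 0 and none was called, with 9.11 and 9.20 in KI and 9.41 and 9.46 in WT. The part of cell and fibre content in the values of the respiratory chain genes was not tested.

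In cerebellum none of the 36 genes passed an adjusted p under 0.05, against 0.205% of the 13641 genes tested (0.147% higher and 0.0586% lower). At an unadjusted p under 0.05, 1 gene passed, higher in KI, against 5.33% (3.06% lower and 2.27% higher). The difference was above 0 for 26 of 36 genes, whereas 52.5% of all genes tested were below 0. The median was 0.04 against -0.01 for all genes. For 8 genes both KI arrays were above both of WT (15.3% of all genes tested), and for 1, Uqcrfs1, both were below (20.0%). KI array 94 was above both WT arrays for 18 genes (31.7%) and below both for 4 (37.5%), and KI array 97 above for 11 (34.1%) and below for 10 (38.3%). Centring each array on its median left the direction (0.0227), but leaving out 1 array moved the median between 0.0007 (without KI array 94) and 0.0696 (without KI array 97). Without WT array 95 it was 0.0082.

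Cox6a2 was the gene with the smallest p in cerebellum. It read 5.80 and 6.15 in KI and 5.32 and 5.40 in WT, with both KI arrays higher (0.62 ± 0.15 SE, unadjusted p 0.0028, adjusted p 0.387). These levels were above the 40th percentile on 4 of 4 arrays. The WT levels were nevertheless below the medians of their arrays (5.46 and 5.48), so the difference rests on low signal. Cox8a, which stood out in muscle, read 9.79 and 10.01 in KI and 9.86 and 9.94 in WT in cerebellum. Among the other complexes, Ndufb9, an accessory subunit of complex I, read 8.71 and 8.48 in KI and 8.42 and 8.39 in WT (0.19 ± 0.13). Cyc1 read 8.41 and 8.40 in KI and 8.27 and 8.32 in WT (0.11 ± 0.10), and Atp5c1 read 10.12 and 10.04 against 9.98 and 10.00 (0.09 ± 0.11). In each of these 3 both KI arrays were above both WT arrays, and none was called (adjusted p 0.998 to 1). Cycs read 11.02 and 10.72 in KI and 11.10 and 10.72 in WT, and Sdhd was at -0.32 ± 0.26. The 4 Purkinje cell markers all had both KI arrays below both WT arrays, against 20.0% of all genes tested (median -0.66, none called). Their summed level was 12.15 and 12.29 in KI and 12.84 and 12.75 in WT. The 5 granule cell markers were all below 0 and none was called. Of 5 astrocyte markers 3 were below 0, with a summed level of 12.68 and 12.76 in KI and 12.91 and 12.94 in WT. Aldoc (-0.31) read highest of the 5 and weighs most in this sum, whereas Gfap and Aqp4 were above 0, at 0.09 and 0.25. The 4 microglia markers tested were all above 0, with 8.22 and 8.27 in KI and 7.99 and 8.02 in WT, and no marker of either type was called. Their part in the values above was not tested.

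The difference between the tissues in the KI effect was tested as an interaction. None of the 36 genes passed an adjusted p under 0.05, against 0.143% of 14708 genes (0.102% above 0 and 0.0408% below). At an unadjusted p under 0.05, 3 passed, against 13.8% (9.15% above 0 and 4.67% below): Cox8a (muscle minus cerebellum effect 0.52 ± 0.19 SE, adjusted p 0.301), Cox6a2 (-0.58 ± 0.22, adjusted p 0.301) and Ndufs3 (-0.38 ± 0.15, adjusted p 0.331). The difference was below 0 for 31 of 36 genes, against 45.0% of all genes tested, with a median of -0.19 against 0.04.

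Other genes of the same machinery were read from lists chosen by name. Among 46 further genes listed as subunits, which include the related proteins Atpif1 and Cox7a2l, none was called in muscle or cerebellum. In muscle 33 of the 46 were below 0 (median -0.08), against 45.0% of all genes tested, and 3 were lower at an unadjusted p under 0.05, a share near that of all genes tested (6.69%). The smallest p for complexes I and V belonged to Ndufab1, the mitochondrial acyl carrier protein (-0.38, adjusted p 0.124), and to Atp5g3, a subunit of the membrane ring of ATP synthase (-0.29, adjusted p 0.195). The smallest p among further genes listed for complexes III and IV belonged to Uqcrq (-0.16, adjusted p 0.474) and Cox7a2l (0.19, adjusted p 0.350).

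Of 41 assembly factors tested in muscle, 2 were called, a share near that of all genes tested (3.55%). Cox19, a factor in copper delivery to complex IV, was higher in KI muscle, and Ndufaf4, a complex I assembly factor, was lower. Cox19 read 7.47 and 7.60 in KI and 7.01 and 6.72 in WT (0.67 ± 0.13 SE, adjusted p 0.0264). Ndufaf4 read 7.14 and 7.25 in KI and 7.76 and 7.71 in WT (-0.54 ± 0.11, adjusted p 0.0348). Cox19 was no longer called under 9 of 18 alternatives and Ndufaf4 under 10. For both these were no filter (adjusted p 0.0531 and 0.0686), all probe sets tested (0.0871 and 0.0975) and the muscle arrays fitted alone (0.0865 and 0.0865). Normalising each tissue apart ended the call of Cox19 (0.0533) and centring each array on its median that of Ndufaf4 (0.0501). The rest left out 1 array. For both, leaving out KI muscle array 94 or 97, WT muscle array 96, or WT cerebellum array 95 or 96 ended the call, at an adjusted p of 0.0536 to 0.122 for Cox19 and of 0.0627 to 0.154 for Ndufaf4. Leaving out WT muscle array 95 also ended that of Ndufaf4 (adjusted p 0.157).

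None of 17 tested regulators of mitochondrial genes was called in muscle. Gabpb1, a subunit of the ETS factor GABP, had the smallest p (0.40, adjusted p 0.114), and Ppargc1a, the coactivator PGC-1alpha, was at an adjusted p of 0.488. None of 12 tested genes of the TCA cycle was called, with Suclg2 at 0.29 (adjusted p 0.247). None of 13 membrane carriers and import genes was called, with Timm23 at -0.29 (adjusted p 0.244). In cerebellum none of these lists held a called gene. The mitochondrially encoded subunits were not analysed here.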

How the data were processed

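Total RNA was labelled with biotin and hybridised to 8 arrays. The table deposited by the authors gives a log2 value for each probe set on each array; GCOS and RMA are the tools that the submitters' processing notes name. Versions, genome build and which arrays shared a normalisation are not stated there. Of 35556 probe sets, 21789 carried 1 gene symbol, 1621 several and 12146 none. The brightest probe set stood for a gene. A gene was tested in a tissue if it reached the array's 40th percentile on at least 2 of 4 arrays. One limma model (limma 3.58.1, R 4.3.3) over the 8 arrays gave each difference with its SE, with Benjamini-Hochberg adjustment over all genes tested (threshold 0.05; between tissues also 2-fold). The spread had 4 residual and 5.295 prior degrees of freedom. No depth exists for arrays; their number, 2 per group, limits the precision. The scripts were tested on simulated data. Named were called genes, the 6 isoform genes, the gene of smallest p in each complex and tissue and, of each further list, the called genes or the one of smallest p in muscle; Ndufs1, Uqcrfs1, Cox4i1, Atp5b, Mb, Myl3 and Ppargc1a were added after their values were seen. The members and lists were chosen with earlier results of these data known. Alternatives changed the filter, the probe set rule, the scaling, the variance model, the replicate block and the arrays included. Promoters came from RefSeq (GRCm38.p6).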

Additional observations from a re-analysis of the deposited data

How the results depend on the processing

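The count of the 36 genes called between genotypes was 0 in each tissue and for the interaction under the alternatives run, with 2 exceptions in muscle. It was 1 (Cox8a, higher) with trended and robust variance moderation, and 1 at an adjusted p under 0.1. These called 706 and 995 of all genes. The tissue count ran from 26 to 28 when 1 array was left out. Leaving out 1 array moved the median muscle difference between -0.2317 and -0.035 and the cerebellar one between 0.0007 and 0.0696. Other scalings gave -0.1341 (each tissue normalised apart) and -0.0778 (each array centred on its median). The Cox8 balance was -0.3246 with each tissue normalised apart. Leaving out 1 array moved the Cycs difference between -0.2075 and 0.0148 (without KI array 94) in muscle, and between -0.2252 and 0.1472 (without WT array 95) in cerebellum, where it was 0.1125 without KI array 97; the cause was not tested. For single genes, 458 alternatives of 25 results were computed, and 434 kept direction and side of the threshold. A call was lost in 19, all of them of Cox19 and Ndufaf4, the only genotype results among the 25 that were called. The others were uncalled between genotypes or were tissue differences. The share that kept its side is therefore no measure of how stable a genotype call is. The adjusted p of Cox8a in muscle ranged from 0.0387 to 0.267, and that of Cox6a2 in cerebellum from 0.213 to 1.

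Deviations of same-numbered arrays correlated at 0.0565 (KI) and -0.1355 (WT) over 12866 genes, so the numbers were not used as pairs; whether a number is an animal is not known from this. With the number as a replicate block, 27 members were called between tissues. Genotype within a tissue could be tested only with a random block (consensus correlation -0.0733), where 0 members were called. The genotype effect within a tissue cannot be fitted beside a fixed block, which gave only the interaction and the tissue difference. With a fixed block and the WT numbers crossed, an alternative chosen after seeing the data, the counts were 0 for the interaction and 27 between tissues. With 2 arrays per group, small differences could not be detected. Signal near the 40th percentile limits Cox8b in cerebellum, and signal below the array medians limits Cox6a2 in WT cerebellum.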
